A study of Arabidopsis thaliana with 12 samples.

Results

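The comparison set the gem1 line against wild type (Col0) in Arabidopsis thaliana seedlings, without and with abscisic acid (ABA), and used 8 of the 12 arrays of the series. The 4 gem1 and 4 Col0 arrays were matched by treatment and replicate number, which gave 4 differences, gem1 minus Col0, for each of 32627 loci. A locus was called agreeing when all 4 differences had the same sign and each was at least 0.5 on the log2 scale. There were 9 such loci, 2 higher and 7 lower in gem1.

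RNA came from whole seedlings of accession Col-0 at 10 days of age, grown at 22 C with 16 h of light and 8 h of dark. The gem1 plants carried a T-DNA insertion, and the labels describe the overexpressor, GEMoe, as driven by the viral 35S promoter. Each genotype was hybridised untreated (-ABA) and after 2 h with 100 uM ABA (+ABA), as 2 biological replicates, which makes 6 groups. The labels name 1 insertion line, 1 overexpressor line and no mock treatment, so an effect of the insertion on GEM cannot be told apart from any other difference between the gem1 and Col0 seed stocks. Values are log2 expression from the RMA method, which corrects background, equalises the arrays and summarises probes.

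GEM (GL2-EXPRESSION MODULATOR) is a protein with a GRAM domain, a fold found in proteins that act at membranes. In the root epidermis it is known to bind CDT1, a factor that licenses DNA replication, and to lower the expression of GLABRA2 and CAPRICE, which set hair and non-hair cell fate. Several of its relatives are known as ABA-responsive genes, and ABA is the hormone of drought response and seed dormancy. The comparison asks which transcripts differ when GEM is altered by the insertion and whether the difference depends on ABA.

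The 8 arrays had medians between 12.16 and 12.21, with 11.4% to 11.8% of transcripts over 15 and highest values of 15.93 to 15.95, a ceiling near which differences are compressed. All 16 root markers, 13 shoot markers, 6 root hair markers, 2 guard cell markers and 4 seed markers were found on the array. The root markers averaged between 8.73 and 15.37 in gem1 and between 8.66 and 15.36 in Col0, and the shoot markers between 11.09 and 15.88 in gem1 and between 11.46 and 15.92 in Col0. Their median differences were -0.01 and 0.00, and 0.05 for the root hair markers, 0.06 for the guard cell markers and -0.22 for the seed markers. Over all loci, 7.01% were higher and 6.96% lower in all 4 pairs. Of the 16 root markers 1 was higher and 3 lower in all 4 pairs. Of the 13 shoot markers 0 were higher and 4 lower. Among the 6 root hair markers 1 was higher, and among the 4 seed markers 1 was lower. The part of these markers in the results was not tested. In whole seedlings, fewer cells of a type and less RNA per cell cannot be told apart.

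The targeted gene was not lower on the arrays labelled gem1. GEM (AT2G22475) lies on chromosome 2 from 9541401 to 9545010, in array coordinates for which no source used here names a build, and is read by a pair of features. In the order untreated replicate 1, untreated replicate 2, ABA replicate 1 and ABA replicate 2, which is kept below, feature 1 stood at 14.38, 14.61, 14.44 and 14.59 on the gem1 arrays. It stood at 15.81, 15.78, 15.73 and 15.74 on the GEMoe arrays, and at 14.13, 14.48, 14.38 and 14.40 on the Col0 arrays. Its 4 paired differences were 0.26, 0.14, 0.06 and 0.19, so gem1 was a little higher in every pair and nowhere lower. Feature 2 stood at 11.16, 11.62, 11.33 and 11.53 in gem1 and at 9.38, 9.65, 9.32 and 9.54 in Col0. Those differences were 1.78, 1.96, 2.01 and 2.00 (mean 1.94, SD 0.11, n = 4 pairs), so feature 2 was higher in gem1 in every pair, with no overlap between the groups. Swapping the labels within pairs gave a two-sided exact permutation p = 0.125 for either feature, the smallest that 16 swaps allow.

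In the limma fit of every feature on all 12 arrays, neither GEM feature passed (adjusted p = 0.999 for both). The standard error of feature 2 was 0.50 there, a fit that also holds the GEMoe values of 11.36, 9.56, 11.98 and 9.38, high in replicate 1 and low in replicate 2. In a fit of the 8 gem1 and Col0 arrays alone, added after the data were seen, feature 2 passed with limma (1.94, SE 0.06, adjusted p = 0.00415). Of the 4491 features that were not the highest of their locus, GEM feature 2 was the single one whose 4 differences agreed at 0.5. No source used here says where the T-DNA lies with respect to the probes, so neither feature checks the label, and the arrays are called gem1 below as they are labelled.

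**Figure D1:**
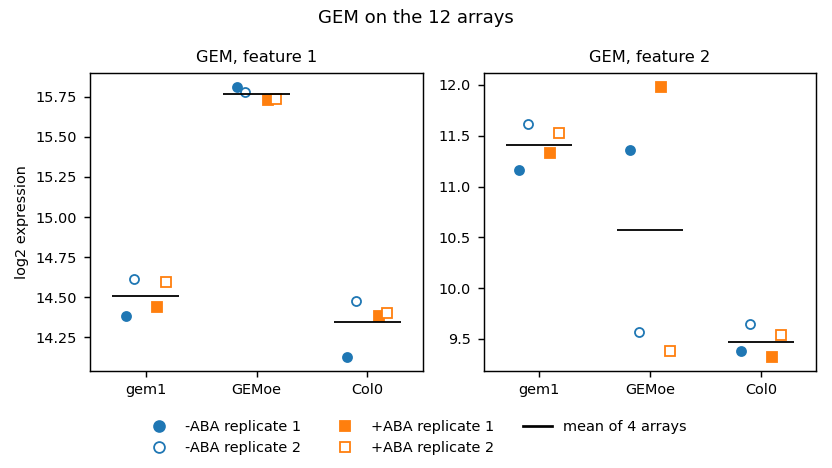
Log2 expression of the GEM features on the 12 arrays, by genotype, with circles for untreated and squares for ABA-treated seedlings, filled for replicate 1 and open for replicate 2, and a line at the mean of 4 arrays. In feature 2 the 4 gem1 arrays lie between 11.16 and 11.62 and the 4 Col0 arrays between 9.32 and 9.65, while the GEMoe arrays split by replicate.

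Beyond GEM, few loci separated gem1 from Col0. All 4 differences had the same sign at 2286 loci that were higher (7.01% of all loci) and 2270 that were lower (6.96%), 14.0% in all. With 4 independent signs, each as likely up as down, 1 in 8 loci would have the same sign throughout. The pairs were not independent, as the ABA pairs correlated at r = 0.49 over all loci. The share of 1 in 8 is therefore not the one to expect here. With a minimum of 0.5 in each pair, 2 loci were higher (0.00613%) and 7 lower (0.0215%), together 0.0276% of the 32627. With a minimum of 1 there were 3, all lower (0.00919%). The 4 gem1 arrays lay wholly above the 4 Col0 arrays at 82 loci (0.251%) and wholly below at 84 (0.257%). Within either treatment they were apart at 280 loci higher (0.858%) and 274 lower (0.840%).

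No locus passed the limma test of the mean difference over both treatments, which was fitted on all 12 arrays with genotype and 4 blocks of treatment and replicate number. The lowest adjusted p was 0.058, shared by AT5G03090 and PME61. Unadjusted, 1041 loci (3.19%) had p under 0.05, 592 higher and 449 lower. The median standard error of a difference was 0.093. The count of 0 was not stable: with limma it was 1 when only the 8 arrays were fitted, 3 with an intensity trend and 5 with array weights, and those calls are given with the loci. The weights came from a fit that stopped before it converged. With them 5587 loci had an unadjusted limma p under 0.05, against 1041 in the main fit.

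The largest difference was at AT5G03090, annotated as an unknown protein (chromosome 5, 725281 to 725962). It stood at 11.20, 10.60, 10.22 and 11.21 in gem1, at 12.37, 13.11, 12.67 and 13.10 in GEMoe, and at 13.10, 13.08, 12.94 and 13.30 in Col0. The gem1 arrays lay below all others, and the GEMoe arrays overlapped the Col0 arrays. The paired differences were -1.90, -2.48, -2.72 and -2.09, a mean of -2.30 (SE 0.20, 4.92-fold lower, limma adjusted p = 0.058). It passed in 6 of 28 alternatives, with limma adjusted p from 0.00339 to 0.931 over them.

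PME61 (AT3G59010, chromosome 3, 21802805 to 21805214) encodes a pectinesterase, an enzyme that removes methyl groups from the pectin of cell walls. It stood at 11.58, 11.38, 11.24 and 11.26 in gem1, at 12.87, 12.14, 13.21 and 12.28 in GEMoe, and at 13.26, 13.01, 13.31 and 12.90 in Col0. Its gem1 arrays were the lowest of the 12 and spanned the narrowest range of the 3 genotypes. The differences of -1.68, -1.63, -2.06 and -1.64 averaged -1.75 (SE 0.16, 3.37-fold lower, limma adjusted p = 0.058). PME61 passed in 6 of 28 alternatives too (limma adjusted p 0.00542 to 1), among them the fit of the 8 arrays alone (adjusted p = 0.0486).

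A pair of the lower loci encode jacalin-type lectins, proteins that bind sugars. MBP1, MYROSINASE-BINDING PROTEIN 1 (AT1G52040, chromosome 1, 19350375 to 19352782), belongs to the machinery around myrosinase, the enzyme that cleaves glucosinolates, the defence compounds of the cabbage family. MBP1 stood at 12.23, 11.17, 12.44 and 12.55 in gem1, at 13.15, 11.79, 13.08 and 12.63 in GEMoe, and at 13.66, 12.99, 13.59 and 13.68 in Col0. The gem1 arrays lay below all Col0 arrays but overlapped the GEMoe arrays, whose untreated replicate 2 was also low. The differences of -1.42, -1.82, -1.16 and -1.13 averaged -1.38 (SE 0.15, limma adjusted p = 0.133). MBP1 passed in 2 of 28 alternatives, with an intensity trend (limma adjusted p = 0.0157) and with array weights (adjusted p = 0.0272), in a range up to 1.

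AT5G35940 (chromosome 5, 14090825 to 14092977) is annotated as a jacalin lectin family protein. It read 10.49, 10.41, 10.62 and 10.80 in gem1, 11.42, 11.46, 11.01 and 10.9954 in GEMoe, and 11.73, 11.55, 11.52 and 11.78 in Col0. The 3 genotypes did not overlap, with gem1 lowest and GEMoe between it and Col0. The mean difference was -1.06 (SE 0.14, limma adjusted p = 0.339), from -1.24, -1.14, -0.89 and -0.98. Without ABA alone this locus had the lowest limma adjusted p of any, 0.471, and it passed with array weights (adjusted p = 0.0495, range over alternatives 0.0495 to 1).

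HEI10 (AT1G53490, chromosome 1, 19963267 to 19966952) encodes a ubiquitin ligase known for its part in meiotic crossovers. In gem1 it stood at 11.76, 10.80, 11.73 and 11.51, in GEMoe at 12.13, 12.45, 12.40 and 12.14, and in Col0 at 12.62, 12.44, 12.92 and 12.88. The gem1 arrays were below all 8 others, while GEMoe and Col0 overlapped. The differences of -0.85, -1.64, -1.19 and -1.37 averaged -1.26 (SE 0.18, limma adjusted p = 0.513). HEI10 passed with array weights and in no other of 28 alternatives (limma adjusted p 0.0495 to 1).

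GAT1_2.1 (AT1G15040, chromosome 1, 5179887 to 5181389) is annotated as related to glutamine amidotransferases, enzymes that move nitrogen from glutamine. It read 11.60, 12.28, 10.65 and 10.36 in gem1, 12.50, 13.12, 11.97 and 10.50 in GEMoe, and 12.56, 13.53, 11.76 and 11.22 in Col0. Here the treated arrays were lower than the untreated ones in every genotype, so the groups of 4 overlapped, and gem1 was below Col0 within either treatment. The paired differences were -0.96, -1.25, -1.11 and -0.86 (mean -1.05, SE 0.17, limma adjusted p = 0.811). A dimmer feature of this locus, which averaged 9.43, gave smaller differences of -0.30, -0.18, -0.16 and -0.18.

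The seventh lower locus, AT4G08093, is annotated as a pseudogene of an unknown protein (chromosome 4, 4990161 to 4991619). It stood at 9.25, 8.70, 9.02 and 8.95 in gem1, at 8.72, 8.78, 8.84 and 8.64 in GEMoe, and at 9.86, 10.24, 9.54 and 10.15 in Col0. Both altered lines, which are set against the same Col0 arrays, lay below Col0 and overlapped each other. Its differences of -0.61, -1.54, -0.51 and -1.1963 averaged -0.96 (SE 0.17, limma adjusted p = 1).

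Of the higher loci, AT5G35935 is annotated as a transposable element gene (chromosome 5, 14083388 to 14089891, on the reverse strand). It stood at 10.81, 10.46, 11.06 and 10.52 in gem1, at 10.24, 10.10, 10.70 and 10.26 in GEMoe, and at 9.46, 9.74, 9.18 and 9.63 in Col0. Col0 was the lowest genotype, without overlap, and both altered lines lay above it. The differences were 1.35, 0.72, 1.88 and 0.89 (mean 1.21, SE 0.18, limma adjusted p = 0.633).

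AT2G06002 is annotated as a non-coding RNA (chromosome 2, 2330776 to 2331479). It read 10.13, 11.30, 10.42 and 11.86 in gem1, 10.71, 11.41, 11.27 and 12.08 in GEMoe, and 9.63, 9.34, 9.87 and 11.30 in Col0. The groups overlapped, because the treated replicate 2 was high in every genotype. The differences of 0.51, 1.96, 0.55 and 0.56 averaged 0.89 (SE 0.24, limma adjusted p = 1).

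**Figure D2:**
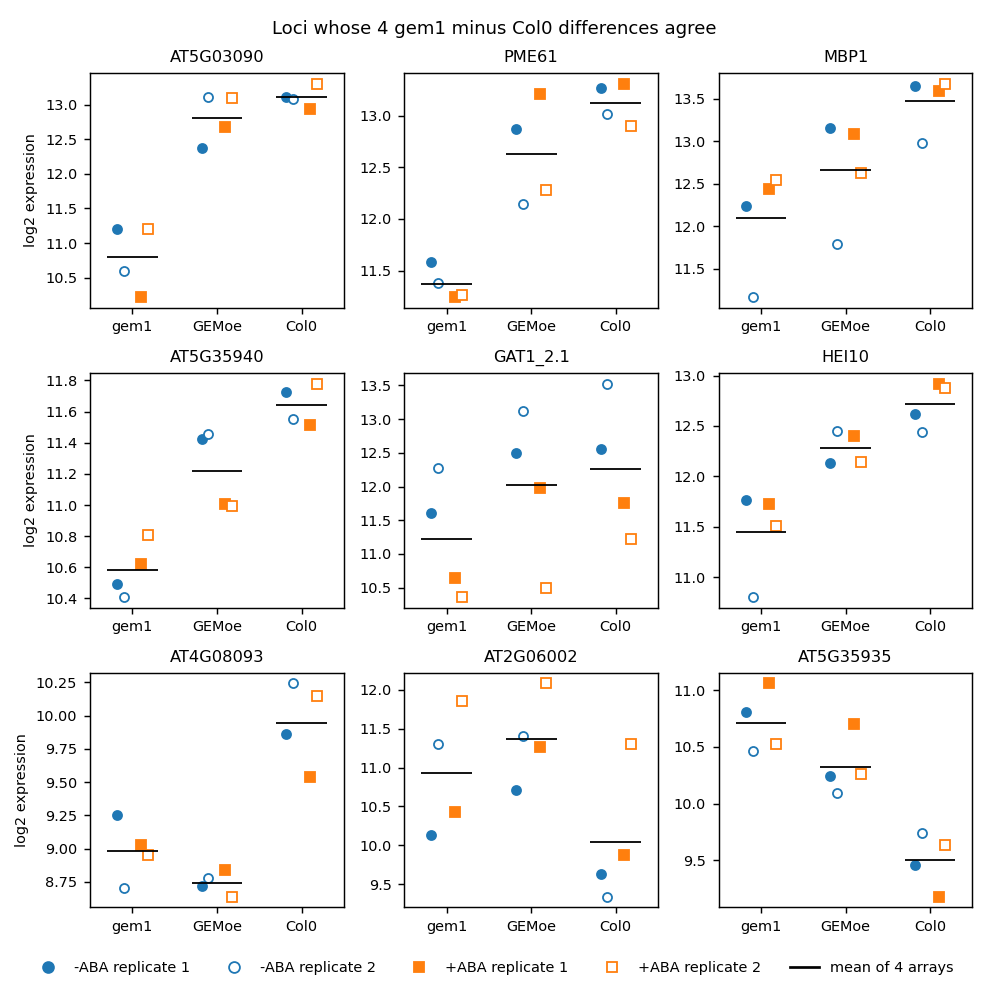
Log2 expression of the 9 agreeing loci on the 12 arrays, by genotype, with the symbols of the GEM plot and each panel on its own scale. At AT5G03090, PME61, HEI10 and AT5G35940 the 4 gem1 arrays lie below all 8 others, and at AT4G08093 the gem1 and GEMoe arrays both lie below Col0.

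The smallest of the 4 differences was 0.51 at AT2G06002 and -0.51 at AT4G08093, just inside the limit of 0.5. Just outside it were CML41 (-0.45), QQS (-0.44) and AT3G01345 (-0.44). With a minimum of 0.3 the list grew to 30 loci, 10 higher (0.0306%) and 20 lower (0.0613%), 0.0919% together. The 21 loci that this adds are described next.

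QQS (QUA-QUINE STARCH, AT3G30720), a gene that affects starch content, had the largest mean difference among the 21. It stood at 9.71, 10.02, 9.53 and 9.91 in gem1, at 10.34, 11.65, 10.29 and 11.18 in GEMoe, and at 10.15, 12.03, 10.78 and 12.70 in Col0. The gem1 arrays were the lowest of the 12 and nearly flat, whereas replicate 2 was high in the other genotypes. Differences of -0.44, -2.0050, -1.25 and -2.79 averaged -1.62 (SE 0.32, limma adjusted p = 1).

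ABCG40 (AT1G15520) encodes a transporter that brings ABA into cells. It read 11.13, 10.17, 12.17 and 11.59 in gem1, 12.54, 11.07, 12.51 and 12.42 in GEMoe, and 12.59, 11.14, 13.33 and 11.96 in Col0. gem1 was below Col0 in every pair while the groups of 4 overlapped, and GEMoe was above gem1 in every pair. The differences were -1.46, -0.97, -1.16 and -0.36 (mean -0.99, SE 0.21, limma adjusted p = 1).

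Other lower loci included genes of defence and signalling. PAD3, which makes the last step to the phytoalexin camalexin, differed by -0.35, -0.67, -0.86 and -1.37. CML41, a calmodulin-like calcium sensor, differed by -1.34, -1.04, -0.45 and -0.53. The signal peptide gene CLE5 gave -0.79, -0.40, -0.79 and -0.83, with the smallest standard error of these 3 at 0.13. AACT1 (AT5G61160), which the array annotates as an anthocyanin acyltransferase, gave -1.0013, -1.46, -0.45 and -0.38, and the glutathione transferase gene GSTU4 gave -0.84, -0.39, -0.36 and -0.40. For none of these 5 did limma pass (adjusted p = 1 for each).

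AT3G01345, annotated as an expressed protein, differed by -0.44, -0.59, -0.83 and -1.66, and its GEMoe arrays of 10.07, 10.67, 10.00 and 10.26 were near its gem1 arrays of 10.22, 10.69, 10.04 and 10.57. AT5G52390, called photoassimilate-responsive, had means of 9.18 in gem1 and 9.95 in Col0. The jacalin lectin gene AT1G52000 had means of 14.67 and 15.10 in gem1 and Col0, and AT1G58643, annotated as an inositol pentakisphosphate 2-kinase, 10.31 and 10.79. The transposable element gene AT3G30420 averaged 9.46 in gem1 and 9.84 in Col0. CAB2, a light-harvesting protein gene, averaged 11.09 in gem1 and 11.46 in Col0. Its near-identical copies CAB1 and CAB3 both averaged over 15 with differences of 0.01, so the share of CAB2 in its own signal is uncertain.

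Among the higher loci, IRT1, the main iron importer of the root, had the largest mean difference. It stood at 13.44, 10.78, 11.14 and 9.28 in gem1, at 10.87, 9.43, 8.51 and 8.81 in GEMoe, and at 11.42, 10.04, 8.86 and 8.95 in Col0. The excess was large in replicate 1 and small in replicate 2, with differences of 2.02, 0.74, 2.28 and 0.33 (mean 1.34, SE 0.35, limma adjusted p = 1). CYCD4;1, a D-type cyclin of the cell cycle, differed by 0.34, 0.57, 0.74 and 0.61. ACR1, a protein with amino acid binding ACT domains, differed by 0.41, 0.52, 0.31 and 0.43. AT5G28335, a transposable element gene, gave 1.36, 0.66, 1.17 and 0.34, and its gem1 arrays lay above all Col0 arrays.

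The remaining higher loci carry little annotation. AT5G28910, an unknown protein, differed by 0.69, 0.81, 0.61 and 0.32 with a standard error of 0.087, and had the lowest limma adjusted p of the 10 higher loci (0.513). AT5G42760, with a methyltransferase domain, averaged 11.72 in gem1 and 11.16 in Col0. The cytochrome P450 gene AT3G44970 averaged 12.80 in gem1 and 12.34 in Col0, and AT1G38630 averaged 9.48 in gem1 and 9.05 in Col0.

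**Figure D3:**
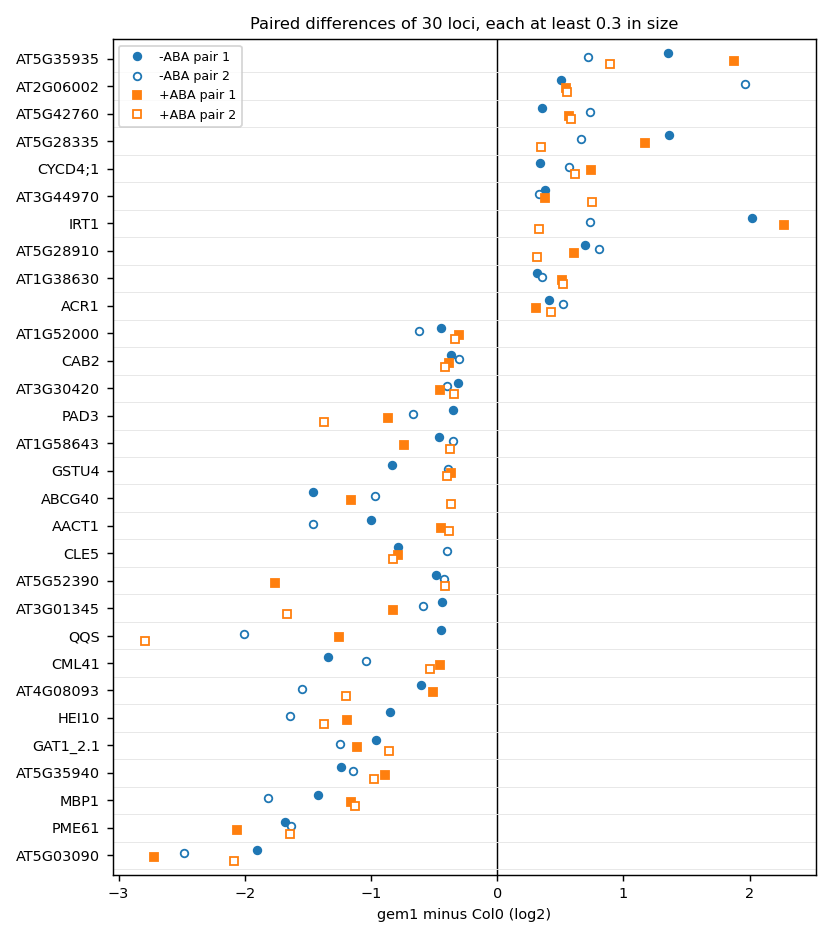
Paired differences, gem1 minus Col0 (log2), of the 30 loci whose 4 differences have the same sign and are each at least 0.3, with circles for untreated and squares for ABA-treated pairs, filled for replicate 1 and open for replicate 2. AT5G03090 and PME61 lie at or below -1.63 in every pair, while the pairs of IRT1 and QQS spread over more than 1.

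Annotation classes among the 30 loci were close to those of the array. There were 3 transposable element genes (10% against 11.8% of all loci), 1 pseudogene (3.33% against 2.67%) and 1 RNA gene (3.33% against 2.24%). By chromosome the 30 fell as 8, 3, 7, 2 and 10 on chromosomes 1 to 5, of which the array holds 24.9%, 16.6%, 20.2%, 15.3% and 22.4% of its loci. A single adjacent pair occurred. The transposable element gene AT5G35935, higher in gem1, lies directly before the lectin gene AT5G35940, lower in gem1 and on the opposite strand. The next loci on either side, AT5G35932 and AT5G35945, had mean differences of 0.02 and -0.03.

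Mean differences at loci beside the other members were smaller than at the members, which the choice of members for large differences makes likely. Beside AT4G08093, AT4G08091 (-0.20), AT4G08092 (-0.15) and AT4G08095 (-0.16) were also lower in all 4 pairs, while AT4G08094 differed by 0.15 on average. MBP2, a neighbour of MBP1 and of similar annotation, gave -0.74 and -1.27 without ABA and 0.10 and 0.26 with ABA. AT1G52050 and AT1G52060, on the other side of MBP1, had mean differences of 0.13 and 0.14. Jacalin genes form a cluster there, and cross-hybridisation between copies was not tested. Next to HEI10, MRD1 differed by -0.14 and MUM4 by 0.01. Next to PME61, AT3G59000 differed by 0.04 and AT3G59020 by -0.07. LPPgamma, beside AT5G03090, differed by -0.14.

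The 10 annotated neighbours of GEM, 5 on either side, had mean differences between -0.15 and 0.09. AGP2, an arabinogalactan protein gene directly before GEM, gave -0.01, -0.51, 0.00 and 0.04. PFK5, a phosphofructokinase gene directly after it, gave 0.01, -0.11, -0.14 and 0.15. HB6, a homeobox gene of the ABA response, differed by 0.01 on average, RIBA2 by -0.06, CYCD2;1 by 0.09, MIR779 by -0.01 and UCP5 by 0.02. None of the 10 had 4 differences of the same sign.

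Other features existed for 4 of the 30 loci, and their differences were not of the same size as those of the chosen ones. Those of GAT1_2.1, AT5G28910 and ACR1 kept the sign of the chosen feature in all 4 pairs, and that of IRT1 did not. The dimmer feature of IRT1 gave 1.63, 0.01, 1.01 and -0.05, so it repeated the excess of replicate 1 and showed none in replicate 2. The other feature of AT5G28910 gave 0.74, 1.12, 0.33 and 0.16, and that of ACR1 0.29, 0.71, 0.19 and 0.64.

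The difference between gem1 and Col0 was next set out by treatment. No locus passed limma without ABA (lowest adjusted p = 0.471; 810 loci, 2.48%, at an unadjusted p under 0.05) or with ABA (lowest adjusted p = 0.903; 1305 loci, 4.0%). Nor did any pass for the ABA response of gem1 minus that of Col0 (limma, lowest adjusted p = 0.951; 1085 loci, 3.33%, at an unadjusted p under 0.05). The median standard error of that difference between responses was 0.18. For the 9 agreeing loci it ranged from -0.68 (SE 0.47) at AT2G06002 to 0.48 (SE 0.28) at MBP1, and was -0.21 (SE 0.44) at AT5G03090 and -0.19 (SE 0.33) at PME61. The rule that chose the 9 asks for the same sign and at least 0.5 in both treatments. Small differences between their responses can follow from that rule and support nothing about ABA.

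**Figure D4:**
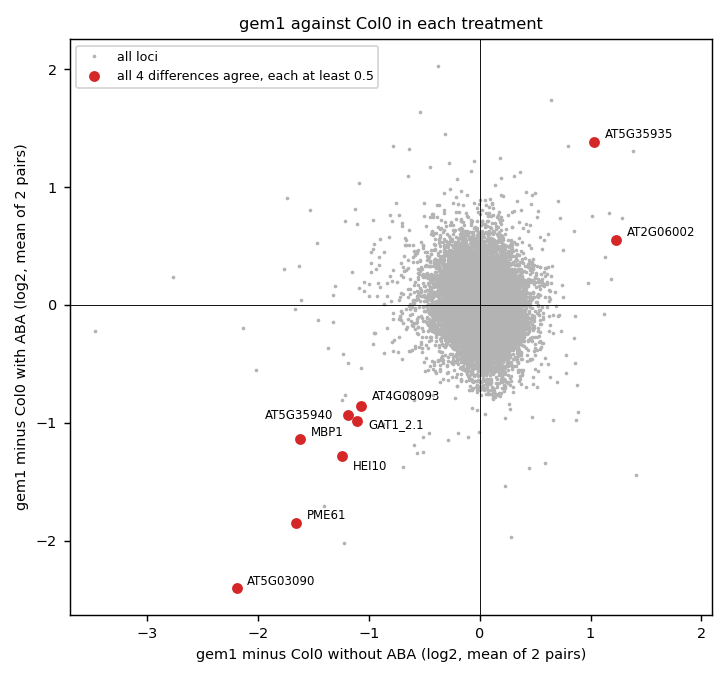
Mean difference between gem1 and Col0 (log2, mean of 2 pairs) without ABA on the horizontal and with ABA on the vertical axis, 1 point per locus. Of the 9 agreeing loci, shown in red, 7 lie to the lower left and 2 to the upper right, away from the cloud centred near 0. The rule that chose them fixes this place.

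Loci chosen for a difference of at least 0.5 in both pairs of a treatment were followed on the arrays of the other. Of 62 loci lower without ABA, 16 (25.8%) were lower in both ABA pairs and 28 (45.2%) were higher in both. Over all loci those shares were 35.2% and 33.0%. Of 200 loci lower with ABA, 26 (13%) were lower and 78 (39%) higher in both untreated pairs, against 23.0% and 25.3% of all loci. Of 12 loci higher without ABA, 7 (58.3%) were higher in both ABA pairs, against 33.0% of all loci. Of 122 loci higher with ABA, 25 (20.5%) were higher in both untreated pairs, against 25.3%. At a minimum of 1, 7 of 17 loci lower without ABA (41.2%, against 35.2%) were lower in both ABA pairs, and 5 of 12 lower with ABA (41.7%, against 23.0%) were lower in both untreated pairs. By the rule that chose them, the 7 lower and 2 higher agreeing loci are counted in the sets at 0.5. The 3 loci past 1 are counted in the lower sets at 1 in the same way. These shares are a description and support nothing about recurrence.

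With a minimum of 1, 17 loci were lower in both untreated pairs and none was higher. AT5G03090, PME61, MBP1, AT5G35940, CML41 and AACT1 were 6 of them, and the others named here were chosen after their values were seen. TAT3, a tyrosine aminotransferase gene induced by jasmonate, stood at 11.61 and 8.69 untreated and 13.42 and 10.99 with ABA in gem1, and at 13.26 and 12.58 untreated and 14.02 and 9.92 with ABA in Col0. AT2G38240 differed by -3.0007 and -3.95 without ABA and by 0.24 and -0.68 with it. NATA1, an acetyltransferase gene of the jasmonate response, gave -2.52 and -1.76 without ABA and -0.25 and -0.15 with it. JRG21, a jasmonate-regulated gene, gave -1.82 and -1.72 without and 0.23 and 0.38 with ABA. All 4 were lower in both untreated pairs by the rule that chose the 17. Their smaller differences after treatment can follow from that choice and support nothing about ABA. None of their differences between ABA responses passed limma over all loci (adjusted p = 0.951 for each of the 4).

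With ABA, 12 loci were lower and 4 higher by at least 1 in both pairs. Those named here were also chosen after their values were seen. CRA1, a cruciferin seed storage protein gene, gave -1.76 and -1.13 with ABA but 3.25 and -0.43 without it. CRU3, another cruciferin gene, gave -1.26 and -1.81 with ABA and 1.12 and -0.67 without. M17, a late embryogenesis gene, gave -1.54 and -1.23 with and 0.45 and 0.44 without ABA. Camalexin synthesis gene CYP71A13 gave -1.05 and -1.33 with ABA, and -1.66 and 0.48 without. HSP17.6II, a small heat shock protein gene, was higher by 1.2003 and 2.27 with ABA and by 0.12 and 1.16 without.

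The 4 pairs of arrays did not resemble each other equally. Differences over all loci had standard deviations of 0.20, 0.25, 0.22 and 0.25. Replicate 2 minus replicate 1 within a group spread more, with standard deviations of 0.65 untreated and 0.39 with ABA in gem1, and of 0.64 untreated and 0.41 with ABA in Col0. Across 32627 loci, which are not independent, the untreated pairs correlated with each other at r = 0.03 and the ABA pairs at r = 0.49. Between an untreated and an ABA pair, r ran from -0.11 to 0.05. No pair shares an array with another, but the ABA pairs share their treatment. The mean difference of the ABA pairs also correlated at r = -0.33 with replicate 2 minus replicate 1 in GEMoe, against 0.12 for the untreated pairs. The part of that replicate axis in the ABA differences was not tested.

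Split by replicate, loci chosen on a set were followed on the other. Of 54 loci lower by at least 0.5 in both pairs of replicate 1, 20 (37.0%) were lower in both pairs of replicate 2, against 24.1% of all loci. Of 28 chosen on replicate 2, 14 (50%) were lower in both pairs of replicate 1, against 24.1%. With a minimum of 1 these were 7 of 12 (58.3%) and 6 of 6. The higher loci gave 11 of 39 (28.2%, against 21.0%) from replicate 1 and 19 of 84 (22.6%, against 27.3%) from replicate 2. The 7 lower and 2 higher agreeing loci are in every such set by the rule that chose them, at either split, and so are the 3 loci past 1, so these shares are a description and support nothing about recurrence.

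Pairing gem1 replicate 1 with Col0 replicate 2 and the reverse gave 8 agreeing loci at 0.5, of which 7 were among the 9. At 0.3 there were 17, of which 8 were among the 30. With agreement in sign alone the crossed pairing gave 1141 loci against 4556, with 554 in common. Both pairings use the same arrays and give each locus the same mean difference, so the loci in common support nothing about recurrence. Crossing also shifts the differences of a treatment in opposite directions, by the difference between its Col0 replicates. Fewer loci with the same sign throughout can follow from that shift.

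Of the 27 gene lists, none had a member past limma in any of the 4 contrasts, as no locus passed. Counts of members with the same sign in all 4 pairs are therefore read against the 7.01% and 6.96% of all loci. Epidermal fate regulators, through which GEM is known, had 2 of 21 higher and 3 of 21 lower in all 4 pairs, with a median of -0.01. GL2 (GLABRA2), the homeobox gene of non-hair and trichome fate, stood at 12.79, 13.01, 12.82 and 12.46 in gem1 and at 13.09, 12.82, 12.81 and 12.70 in Col0. Its groups overlapped and its mean difference was -0.09 (SE 0.115, limma adjusted p = 1). CPC (CAPRICE), a mobile repressor that promotes hair fate, differed by 0.04, -0.07, -0.19 and -0.17.

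MYB66, also known as WEREWOLF, which sets non-hair fate, was the regulator with the largest mean difference. It stood at 10.52, 10.29, 9.54 and 9.15 in gem1 and at 10.47, 9.92, 8.77 and 8.89 in Col0, with differences of 0.05, 0.37, 0.77 and 0.26 (mean 0.37, SE 0.15, limma unadjusted p = 0.0396, adjusted p = 1). The groups of 4 overlapped, because ABA-treated arrays were lower in either genotype. CPL3 (AT4G01060), a relative of CPC with 1 MYB repeat, gave 0.19, 0.16, 0.32 and 0.16. ETC1, another single-repeat MYB, gave -0.06, -0.02, -0.33 and -0.07, and the zinc finger gene ZFP5 gave -0.29, -0.25, -0.06 and -0.19. MYB0, known as GLABRA1, gave -0.08, -0.03, -0.06 and -0.15.

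The mean differences of MYB23, TRY, ETC2, TCL1, GL3, EGL3, TTG1, TTG2, MYB5, SUB, JKD, GIS, RHD6 and RSL1 lay between -0.23 at MYB23 and 0.25 at GIS. Root hair growth genes had 4 of 23 higher and 1 lower in all 4 pairs, with a median of 0.05. RHS13 gave 0.05, 0.44, 0.31 and 0.11, and G3Pp2 0.03, 0.48, 0.23 and 0.39. Among 9 GEM and GEM-like GRAM genes, GEM itself and AT5G23360 were higher in all 4 pairs. AT5G23360 gave 0.03, 0.01, 0.51 and 0.28, and the other 7 had means between -0.14 and 0.10.

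Genes of the replication licensing machinery, to which CDT1 belongs, had 1 of 24 higher in all 4 pairs and none lower. That gene was CDC6, which loads the replicative helicase together with CDT1, with 0.19, 0.02, 0.46 and 0.32. The list medians were 0.06 and -0.27 without ABA and 0.13 and 0.20 with ABA.

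Lists of the ABA pathway were near 0. Over 23 genes known to be induced by ABA the median was -0.02, with 0 higher and 3 lower in all 4 pairs. KIN1, a cold- and ABA-induced gene, stood at 10.57, 9.41, 13.84 and 14.07 in gem1 and at 10.73, 10.00, 14.31 and 14.55 in Col0. It was lower in each pair (mean -0.43, SE 0.08, limma unadjusted p = 0.000421, adjusted p = 1), and it lies beside the near-identical KIN2, so its own share is uncertain. None of the 9 clade A PP2C phosphatases, which restrain ABA signalling, had the same sign in all 4 pairs (median 0.01). Of 14 ABA receptors 1 was higher (median -0.01). CYP707A3, which breaks ABA down, gave 0.65 and 0.71 without ABA and -0.07 and 0.29 with it.

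No iron uptake gene passed limma, and the differences of several were larger in replicate 1 than in replicate 2. In the list of 17 iron and nitrate genes 5 were higher in all 4 pairs (29.4%) and 1 lower, with a median of 0.19 against 0.00 over all loci. The list medians were 0.20 and 0.26 in the pairs of replicate 1 and 0.03 and 0.06 in those of replicate 2. FRO2, the root ferric reductase that works with IRT1, stood at 13.21, 11.58, 12.14 and 11.90 in gem1, at 10.87, 11.09, 11.10 and 11.65 in GEMoe, and at 11.16, 11.30, 10.94 and 11.55 in Col0. The gem1 arrays lay above all Col0 arrays, with differences of 2.05, 0.28, 1.2041 and 0.35 (mean 0.97, SE 0.31, limma adjusted p = 1).

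NAS2, a nicotianamine synthase that makes a metal chelator, differed by 0.70, 0.29, 1.22 and 0.69 (mean 0.72, SE 0.13, limma unadjusted p = 0.000493, adjusted p = 1). The bHLH factors that switch on iron uptake followed the replicate number. BHLH100 gave 2.03 and 1.33 in replicate 1 and -0.32 and -0.07 in replicate 2. BHLH101 gave 1.06 and 0.82 against 0.05 and -0.29, bHLH38 gave 0.82 and 1.00 against 0.06 and 0.01, and bHLH39 gave 0.97 and 0.94 against -0.87 and -0.28. FRU, the bHLH factor also known as FIT, differed by 0.29, -0.07, 0.19 and 0.02. Thus 4 bHLH genes were 0.82 or more above Col0 in both pairs of replicate 1 and at most 0.06 above it in replicate 2. The nitrate transporter gene NRT2:1 gave 0.14, 0.07, 0.18 and 1.52, and the nitrate reductase gene NIA1 gave -0.28, -0.11, -0.34 and -0.01.

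**Figure D5:**
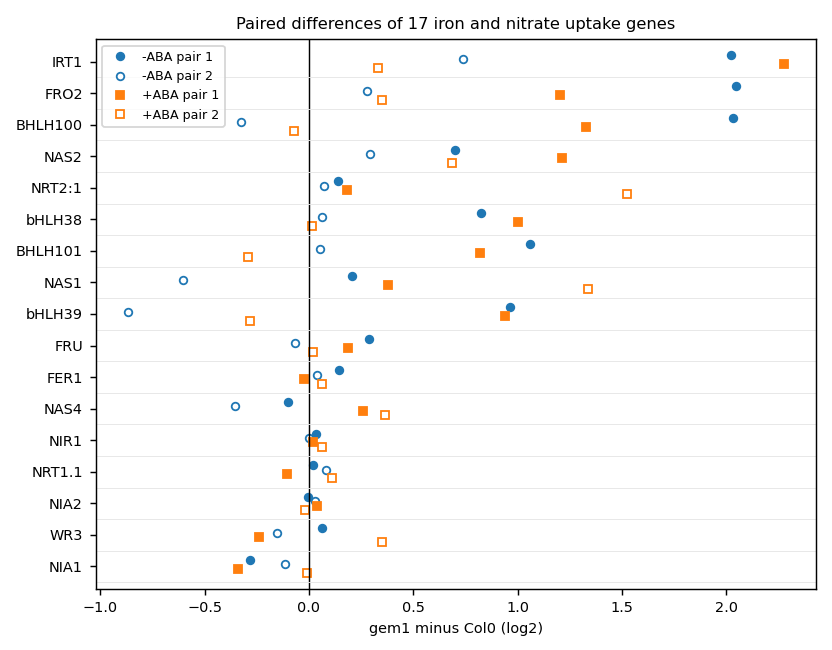
Paired differences, gem1 minus Col0 (log2), of 17 iron and nitrate uptake genes, ordered by their mean, with the symbols of the plot of 30 loci. For IRT1, FRO2 and the bHLH genes the filled points of replicate 1 lie to the right of the open points of replicate 2.

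The salicylate defence list had a median of 0.03, with medians of -0.27 and 0.11 without ABA and of 0.09 and 0.19 with it. Lower in all 4 pairs were 2 of its 19 members (10.5%, against 6.96% of all loci), and none was higher. These were the camalexin gene PAD3 and PR1, a marker of salicylate defence. PR1 stood at 11.91, 10.33, 13.08 and 10.24 in gem1 and at 13.22, 10.43, 13.64 and 10.60 in Col0, so that the replicate sets differed more than the genotypes. BGL2, a glucanase gene known as PR2, gave -1.58, -0.56, 0.27 and -1.33. The jasmonate list had 0 of 20 higher and 4 lower in all 4 pairs (20%), with medians of -0.35 and -0.22 without ABA and of 0.00 and 0.10 with it. VSP2, a vegetative storage protein gene induced by jasmonate, differed by -0.48, -1.20, -0.26 and -0.13 (mean -0.52, SE 0.23, limma adjusted p = 1), and VSP1, its close copy, by -0.37, -0.82, -0.21 and -0.15.

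Heat shock proteins had 4 of 16 higher (25%) and 1 lower in all 4 pairs, with medians of 0.10 and -0.07 without ABA and of 0.35 and 0.44 with it. HSP17.6II stood at 10.82, 13.68, 12.52 and 13.72 in gem1 and at 10.70, 12.52, 11.32 and 11.45 in Col0 (mean difference 1.19, SE 0.31, limma adjusted p = 1). Its groups overlapped, with the untreated replicate 1 lowest in either genotype. HSP17.6A gave 0.11, 0.46, 0.56 and 0.37, and HSFA7A, a heat stress factor, gave -0.20, -0.12, -0.47 and -0.61.

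Cuticle and wax genes, which the epidermis expresses, had 9 of 22 higher (40.9%) and none lower in all 4 pairs, by small amounts. The list median was 0.04, and 12 of the 22 averaged over 15, near the ceiling. MYB96, a factor that switches on wax synthesis, gave 0.20, 0.08, 0.12 and 0.21 (mean 0.15, SE 0.06, limma unadjusted p = 0.0332, adjusted p = 1). LACS2, an acyl-CoA synthetase of cutin synthesis, gave 0.17, 0.18, 0.11 and 0.13. Light-harvesting and Rubisco genes had 0 of 20 higher and 5 lower in all 4 pairs, with a median of -0.01 and 18 of the 20 over 15.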

How the data were processed

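The files hold log2 expression for each transcript feature, as deposited by the authors. The submitters' processing notes name RMA, without a version. The log2 scale was read from the values. Each value rests on 1 to 4 probes, per the file headers. A table of the whole series was identical (largest difference 0).

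Of 37118 features, the one with the highest mean over all 12 arrays stood for each of 32627 loci (3602 loci had several). Names came from the array annotation and the TAIR10.1 gene table, which held 31993 loci. Differences were tested with limma 3.58.1 in R 4.3.3 on all 12 arrays, with genotype and 4 blocks of treatment and replicate number (6 residual degrees of freedom; 4 for the contrasts by treatment), two-sided, Benjamini-Hochberg adjusted over all loci, threshold 0.05. The labels number the replicates, and deviations of same-numbered samples from their group means correlated in all 15 pairs of groups (0.44 to 0.88), so the numbers were taken as pairs. The labels call the replicates biological.

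The members and the 27 gene lists (482 of 488 names found) were chosen with earlier results of these data known. Named were up to 15 agreeing loci in each direction, up to 4 members per list, GEM, its relatives, the epidermal regulators, the neighbours of GEM and adjacent agreeing loci. Beyond that rule, the other loci past 0.3, further iron genes and members of other lists, neighbours of members and loci past 1 in a treatment were named after their values were seen. The fit was tested on simulated data. Alternatives are given in the closing section. Figures were drawn with matplotlib 3.10.9.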

Additional observations from a re-analysis of the deposited data

Results flagged for a closer look

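GEM feature 2, which the comparison of loci left out because feature 1 was brighter, was higher on the gem1 arrays than on the Col0 arrays by 1.94 on the log2 scale, and in 4 of 4 pairs. It was singled out as a signal above the Col0 level in a feature outside the main measurement. Its part in the other differences was not tested.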

How the results depend on the processing

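The count of 0 loci for the mean difference was 1 with only the 8 gem1 and Col0 arrays and the replicate block (PME61), 3 with an intensity trend (AT5G03090, MBP1 and PME61), 5 with array weights (those 3, AT5G35940 and HEI10, in a weight fit that stopped before it converged) and 2 with every feature on the 8 arrays (GEM and PME61, added after seeing the data). It ranged from 0 to 2 with an array or pair left out: 1 without untreated gem1 replicate 1, untreated GEMoe replicate 1, ABA-treated GEMoe replicate 1 or the untreated pair 1, and 2 without untreated GEMoe replicate 2. Without the replicate block, or with a block by number alone, it stayed at 0 (lowest limma adjusted p without the block = 0.0889). Without ABA the count was 0 to 1, the 1 being AT2G05915 without untreated Col0 replicate 2. With ABA, and for the difference between ABA responses, it was 0 in all 29 alternatives.

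The 9 agreeing loci became 4556 with the same sign alone, 30 with a minimum of 0.3, 3 with a minimum of 1 and 554 where the groups need only be apart within each treatment. With 1 pair left out, 12 to 31 loci agreed in the other 3. With a minimum of 1, the loci with the same sign in both pairs of the other arrays were 37.5% of 16 chosen with ABA. They were 60% of 20 chosen on replicate 1, 40% of 20 chosen on replicate 2 and 41.2% of 17 chosen untreated. Over all loci, 25.3% were higher and 23.0% lower in both untreated pairs, and 33.0% higher and 35.2% lower in both ABA pairs. For the pairs of replicate 2 these shares were 21.0% and 24.1%, and for those of replicate 1 they were 27.3% and 24.1%. Each chosen set includes the 3 loci past 1 in all 4 pairs, so its share supports nothing about recurrence. GEM feature 2 (1.94) passed on the 8 arrays alone, where its value is the same by construction and its standard error smaller. Over the 30 loci, 816 of 832 recomputed values kept sign and side of the threshold, 16 passed it, and 0 changed sign. No locus passed in the main fit, so a kept side means that the locus again did not pass. The 30 were chosen for 4 differences of the same sign, so the kept signs follow largely from that rule and support nothing. Groups of 2 arrays, and compression near 15.95, limit what can be resolved.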

Other observations

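Flavonoid and anthocyanin genes had higher list medians with ABA than without it, and none passed the test. The list of 14 had medians of 0.47 and 0.42 in the ABA pairs and of 0.07 and -0.35 in the untreated pairs. LDOX, a late enzyme of anthocyanin synthesis, stood at 12.29 and 7.99 untreated and 12.01 and 10.07 with ABA in gem1, and at 12.11 and 9.44 untreated and 11.18 and 8.26 with ABA in Col0. TT8, a bHLH factor that switches such enzymes on, differed by 0.07 and -0.61 without and by 0.58 and 1.40 with ABA. Neither difference between responses passed limma over all loci (adjusted p = 0.951 for both).

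The gibberellin list had medians of 0.20 and 0.17 with ABA and of -0.05 and -0.02 without it. GA3OX2, which makes active gibberellin, gave 0.56, -0.21, 0.58 and 0.99. Seed maturation genes had medians of 0.26, -0.10, -0.11 and -0.56. The clock gene CCA1 was higher by 0.18, 0.06, 0.33 and 0.13. WRKY53, a defence and senescence factor, gave -0.08, 0.66, 0.29 and 1.03. The ribonuclease gene RNS1 gave -1.26 and -1.9979 without and 0.50 and 0.15 with ABA.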
